A study of Drosophila mauritiana and Drosophila melanogaster and Drosophila simulans with 12 samples.

Results

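The 10 genes described here, *sens*, *ro*, *lz*, *pros*, *sev*, *boss*, *svp*, *B-H1*, *B-H2* and *salm*, assign the subtypes of the photoreceptors in the fly eye. They were chosen by name for this role and not by their values, and all 10 are listed in both tables of counts made with the reciprocal re-annotation, which hold 13331 genes for *D. melanogaster* with *D. mauritiana* and 13320 genes for *D. simulans* with *D. mauritiana*. The reads came from RNA of the eye-antennal imaginal discs of female late L3 larvae, the tissue that forms the eye, the antenna and most of the head capsule, taken at 120 h after egg laying from larvae kept at 25 °C. Each library was made from 500 ng of RNA of 40 to 50 pooled discs. The 12 libraries form 4 groups of 3, namely *D. melanogaster* of the strain OreR (replicates A, B and C) and *D. mauritiana* of the strain TAM16 (A, B and C), both sequenced as single-end reads of 50 bp, and *D. mauritiana* TAM16 (D, E and F) and *D. simulans* of the strain YVF (*yellow*, *vermillion*, *forked*; A, B and C), both sequenced as paired-end reads of 100 bp. Each species is represented by 1 strain, and the whole disc with its antennal part was used. In such pooled tissue, fewer cells of a type and less RNA per cell cannot be told apart.

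In the eye disc, photoreceptors are recruited in a fixed order behind the morphogenetic furrow, starting with R8 and followed by the pairs R2/R5 and R3/R4, then R1/R6 and at last R7. *sens* encodes a zinc finger factor that maintains R8, and the homeodomain factor Rough (*ro*) acts in R2/R5, where it keeps *sens* off. The nuclear receptor Seven-up (*svp*) and the zinc finger factor Spalt major (*salm*) act in R3/R4, *svp* also in R1/R6, and *salm* later in R7 and R8. The Runx factor Lozenge (*lz*) prepares the precursors of R1/R6, R7 and the cone cells. The Bar homeodomain proteins (*B-H1* and *B-H2*) mark R1/R6, and the homeodomain protein Prospero (*pros*) marks R7 and cone cells. The receptor tyrosine kinase Sevenless (*sev*) receives the signal for the R7 fate from its ligand Bride of sevenless (*boss*), which R8 presents.

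On the reciprocally re-annotated gene models, edgeR called none of the 10 genes between *D. melanogaster* and *D. mauritiana* or between *D. simulans* and *D. mauritiana*. DESeq2, which the paper proposes for counts on such models, called *sev* and *lz* against *D. simulans* (adjusted p = 0.0226 and 0.0442), beside 30.6 % of all genes. It called none against *D. melanogaster*. The lowest log2-fold changes in edgeR against *D. melanogaster* were those of *ro* and *sev*, which had 1.48 and 1.34 times higher fitted levels in *D. mauritiana*. Against *D. simulans* they were those of *sev* and *svp*, at 1.22 and 1.21 times. Within *D. mauritiana*, on the same models, edgeR called 5 of the 10 genes between the libraries with single-end and with paired-end reads, beside 48.1 % of all genes tested. *svp*, *lz*, *salm* and *sev* were higher and *ro* was lower in the paired-end libraries.

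Here a gene was called differentially expressed if its p-value in edgeR's quasi-likelihood test, adjusted by Benjamini-Hochberg over all genes tested, was below 0.05. A positive log2-fold change means a higher level in *D. melanogaster* or *D. simulans*, and a negative one a higher level in *D. mauritiana*. Among all genes tested, 18.2 % were called in the comparison of *D. melanogaster* with *D. mauritiana* (8.06 % higher and 10.1 % lower in *D. melanogaster*), and 25.1 % in that of *D. simulans* with *D. mauritiana* (12.1 % higher and 13 % lower in *D. simulans*), against 0 of the 10 genes in both comparisons. At an unadjusted p below 0.05 the same edgeR test gave 0 of 10 and 2 of 10 genes (*sev* and *lz*), beside 31.7 % and 38 % of all genes tested. DESeq2 called 0 of the 10 genes in the first and 2, again *sev* and *lz*, in the second comparison, beside 20.8 % and 30.6 % of all genes. The median log2-fold change of the 10 genes was -0.11 in the comparison with *D. melanogaster* and -0.076 in that with *D. simulans*, beside medians of 0.0092 and 0.0027 over all genes tested. The median size of the change, regardless of sign, was 0.20 and 0.10 for the 10 genes and 0.32 and 0.25 for all genes.

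Total counts per library were 17170747 to 34063962 for single-end reads and 121468882 to 162437570 for paired-end reads, which the authors had split into reads of 50 bp, so that 1 fragment could be counted more than once. The 10 genes had between 145 and 11617 counts in a single-end library and between 1447 and 79561 in a paired-end library, and all passed the filter on low counts in every fit. The single-end libraries *D. mauritiana* A and *D. melanogaster* B stood apart, with 3.48 % and 2.77 % of their counts in the mitochondrial gene *mt:CoI* and 15.5 % and 15.1 % in their 20 most abundant genes, against at most 10.4 % in every other library. Without both libraries, the number of the 10 genes called between *D. melanogaster* and *D. mauritiana* stayed at 0. Markers of the labelled tissue were present in all libraries. The 5 genes of the eye part (*ey*, *toy*, *eya*, *so*, *dac*) summed to 1006 to 1337 CPM (counts per 1000000 of the normalised library size) and the 4 of the antennal part (*Dll*, *ss*, *dan*, *danr*) to 348 to 592 CPM. Markers of fat body (*Lsp1alpha*, *Lsp2*, *Fbp1*, *Fbp2*), which is not part of the disc, summed to 103 to 3763 CPM in *D. melanogaster*, 394 to 1832 CPM in the single-end and 20.8 to 32.8 CPM in the paired-end libraries of *D. mauritiana* and 5.17 to 105 CPM in *D. simulans*, with none of the 4 genes at 0 in any library. Markers of glia summed to 349 to 542 CPM in single-end and 573 to 621 CPM in paired-end libraries, those of hemocytes to 210.2 to 1222 and 315 to 752 CPM, and those of muscle, of which 4 of 5 were listed, to 849 to 1679 and 2004 to 3410 CPM. Their part in the values below was not tested.

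**Figure D1:**
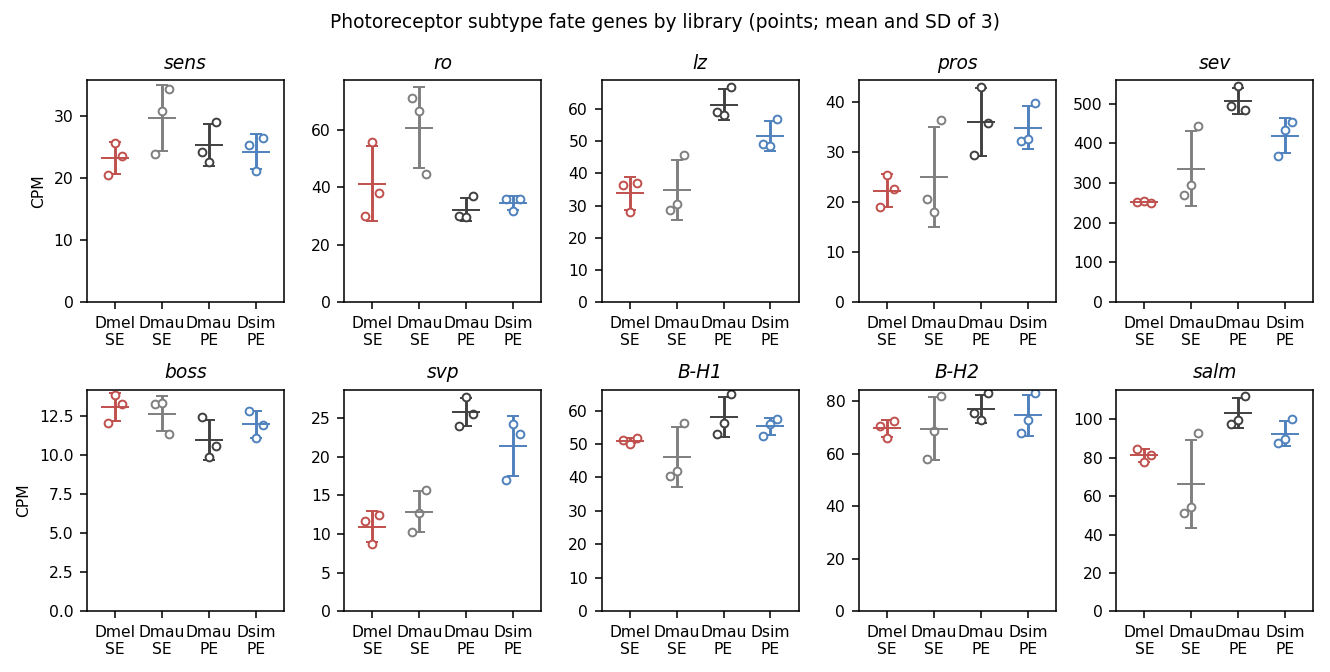
CPM, normalised over all 12 libraries (vertical axes, linear and starting at 0), of the 10 genes in *D. melanogaster* (Dmel), *D. mauritiana* (Dmau) and *D. simulans* (Dsim) libraries with single-end (SE) or paired-end (PE) reads. Circles are libraries in the order of their replicate letters, and bars give the mean and SD of 3; *D. mauritiana* single-end C stands above A and B for *lz*, *pros*, *sev*, *B-H1* and *salm* and below them for *ro*.

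On the published *D. mauritiana* genome, the reciprocal gene models lie on 4 chromosome arms. The models of *sens* (3L, 12841831 to 12845885, 4 exons) and *ro* (3R, 21881017 to 21885361, 3 exons) span short stretches, as does that of *boss* (3R, 21007392 to 21010639, 5 exons). Those of *svp* (3R, 12812090 to 12825478, 3 exons) and *pros* (3R, 13697561 to 13708832, 7 exons) lie on the same arm. On the X chromosome are *lz* (8542900 to 8552336, 6 exons), *sev* (10235527 to 10247764, 11 exons), *B-H2* (16037816 to 16088492, 10 exons) and *B-H1* (16162874 to 16167507, 4 exons), and on 2L is *salm* (11005429 to 11014606, 4 exons). The exons counted here are blocks of the deposited alignments, in coding sequence since the references hold no UTRs. Their number need not be that of the exons of the gene. On the *D. melanogaster* coding sequences, which hold no introns, the alignments gave 3 blocks for *pros* and *B-H1*. They gave 2 for *lz* and *salm* and 1 for each of the others. *sev* has the longest coding model, with 7683 nt in *D. mauritiana*, and *ro* the shortest, with 1038 nt.

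Per length, as RPKM (CPM divided by the length of the reciprocal model in kilobases), the highest of the 10 genes stood 8.95 times above the lowest in *D. melanogaster*, 12.8 times in the single-end and 16.2 times in the paired-end libraries of *D. mauritiana*, and 12.3 times in *D. simulans*. *pros* and *boss* had the lowest levels in all 4 groups, between 4.11 ± 0.474 (SD, n = 3; *boss*, *D. mauritiana* paired-end) and 6.69 ± 1.28 RPKM (*pros*, same libraries). The highest level was that of *sev* in the paired-end libraries, with 66.6 ± 4.28 RPKM in *D. mauritiana* and 54.7 ± 5.5 RPKM in *D. simulans*, and that of *ro* in the single-end libraries, with 58.5 ± 14.6 RPKM in *D. mauritiana* and 39.0 ± 13.4 RPKM in *D. melanogaster*. Many neighbours in this order did not differ beyond the spread of the libraries. In the single-end *D. mauritiana* libraries the ranges overlapped for each neighbouring pair from *ro* through *sev*, *B-H2*, *B-H1*, *lz* and *sens* to *salm*, and in *D. simulans* for *B-H2*, *B-H1*, *lz* and *ro*. The level of *svp* was 8th of the 10 in all 4 groups, with 5.94 ± 0.923 RPKM in *D. melanogaster*, 7.01 ± 1.33 and 14.3 ± 1.06 RPKM in the single-end and paired-end libraries of *D. mauritiana* and 11.8 ± 2.05 RPKM in *D. simulans*.

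The libraries of 1 group differed most in the single-end *D. mauritiana* set. There the coefficient of variation over 3 libraries had a median of 21.9 % over the 10 genes, against 10.7 % in *D. melanogaster*, 9.62 % in the paired-end *D. mauritiana* libraries and 9.74 % in *D. simulans*. Library C had the highest CPM of the 3 for 8 of the 10 genes and the lowest for the other 2, *ro* and *boss*.

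The gene for the R8 factor, *sens*, had 20.2, 26.1 and 22.8 CPM in *D. melanogaster* A, B and C and 24.4, 30.3 and 33.6 CPM in *D. mauritiana* A, B and C. The groups overlapped, since *D. mauritiana* A lay below *D. melanogaster* B, and the log2-fold change was -0.36 (SE 0.18, adjusted p = 0.236 in edgeR). With paired-end reads, *sens* had 25.5, 20.9 and 26.5 CPM in *D. simulans* and 24.3, 22.7 and 29.5 CPM in *D. mauritiana* D, E and F. These ranges lay on top of each other, and the log2-fold change of -0.069 had a 95 % interval from -0.38 to 0.24.

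*boss*, the ligand that R8 presents to the R7 precursor, was close to the same level in all 4 groups. It had 11.9, 14.1 and 12.9 CPM in *D. melanogaster* and 13.6, 13.2 and 11.1 CPM in *D. mauritiana*, a log2-fold change of 0.041 with a 95 % interval from -0.39 to 0.47. In the paired-end libraries it had 12.9, 11.0 and 12.0 CPM in *D. simulans* and 12.5, 9.99 and 10.7 CPM in *D. mauritiana*, with a log2-fold change of 0.12 and an interval from -0.19 to 0.43. The groups overlapped in both comparisons, and the models of *boss* had the same 2691 nt in all 3 species.

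The R2/R5 gene *ro* had the log2-fold change of the largest size between the single-end groups, and also the widest interval. Its CPM values were 29.7, 56.8 and 36.7 in *D. melanogaster* and 72.8, 65.5 and 43.8 in *D. mauritiana*. *D. melanogaster* B, 1 of the 2 libraries that stood apart, lay above *D. mauritiana* C, so the groups overlapped. The log2-fold change was -0.57 (SE 0.29, adjusted p = 0.230 in edgeR), with an interval from -1.23 to 0.10 that includes both no change and a ratio of 0.425 between the species. In the paired-end libraries *ro* had 36.3, 31.5 and 35.9 CPM in *D. simulans* and 30.2, 29.8 and 37.3 CPM in *D. mauritiana*. These groups overlapped, and the log2-fold change was 0.091 (interval -0.17 to 0.35).

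Of the R3/R4 genes, *svp* had 11.6, 8.91 and 12.0 CPM in *D. melanogaster* and 10.5, 12.5 and 15.3 CPM in *D. mauritiana*, which overlap. Its log2-fold change was -0.24 (SE 0.23, adjusted p = 0.529 in edgeR), and it moved to -0.092 without *D. mauritiana* C, to -0.12 without *D. melanogaster* B and to -0.38 without *D. mauritiana* A. With paired-end reads it had 17.2, 24.0 and 23.1 CPM in *D. simulans* and 24.1, 28.0 and 25.9 CPM in *D. mauritiana*. All 3 values of *D. simulans* lay below those of *D. mauritiana*, by a small gap between 24.0 and 24.1 CPM. Normalised over all 12 libraries, as plotted, the groups overlapped, with 24.2 CPM in *D. simulans* B and 24.0 CPM in *D. mauritiana* D. The log2-fold change of -0.28 (SE 0.14) was not called (adjusted p = 0.188 in edgeR), and without *D. simulans* A it was -0.14 (adjusted p = 0.320).

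*salm* was the gene with the largest positive log2-fold change in *D. melanogaster*, and its value moved with single libraries. It had 83.2, 79.6 and 79.0 CPM in *D. melanogaster* and 52.5, 53.8 and 90.8 CPM in *D. mauritiana*. *D. mauritiana* A and B lay below and C above all *D. melanogaster* libraries. With all libraries the log2-fold change was 0.29 (SE 0.22, adjusted p = 0.427 in edgeR). Without *D. mauritiana* C it was 0.59 (SE 0.12) with an adjusted p of 0.0184, which was the lowest of a range from 0.0184 to 0.788 over 15 alternative settings on the reciprocal models and the sole call among them. Without *D. mauritiana* A or B it was 0.13 and 0.15. Against *D. simulans*, with 88.6, 89.5 and 100.4 CPM there and 98.2, 100.5 and 114 CPM in *D. mauritiana*, the log2-fold change was -0.17 (interval -0.36 to 0.030), and the groups overlapped.

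Among the genes for R1/R6, *lz* showed no difference beyond the spread of the single-end libraries, where it had 36.0, 28.6 and 36.0 CPM in *D. melanogaster* and 29.2, 30.0 and 44.7 CPM in *D. mauritiana* (log2-fold change -0.047, interval -0.54 to 0.45). With paired-end reads it had 49.7, 48.4 and 57.4 CPM in *D. simulans* and 59.4, 58.7 and 67.9 CPM in *D. mauritiana*. Here all 3 *D. simulans* libraries lay below the 3 of *D. mauritiana*. The log2-fold change was -0.26 (SE 0.092, interval -0.48 to -0.042), at an adjusted p of 0.0829 in edgeR, which does not pass the threshold. DESeq2 on the same counts called it (-0.25, adjusted p = 0.0442), and over 13 alternative settings on the reciprocal models the adjusted p ranged from 0.0442 to 0.423, with DESeq2 giving the sole call.

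The Bar genes of R1/R6, *B-H1* and *B-H2*, had the narrowest intervals of the 10 genes in the comparison with *D. melanogaster*. *B-H1* had 50.6, 51.1 and 50.1 CPM in *D. melanogaster* and 41.2, 41.2 and 55.1 CPM in *D. mauritiana*, and *B-H2* had 69.3, 67.5 and 70.4 CPM and 59.0, 67.6 and 80.1 CPM. For both genes the *D. mauritiana* libraries lay on both sides of *D. melanogaster*, and the log2-fold changes were 0.14 (interval -0.22 to 0.51) and 0.0018 (interval -0.34 to 0.34). In the paired-end libraries *B-H1* had 52.9, 55.6 and 57.7 CPM in *D. simulans* and 53.2, 57.0 and 65.8 CPM in *D. mauritiana*. *B-H2* had 68.4, 72.5 and 83.4 CPM and 75.8, 73.4 and 84.2 CPM. The intervals of the ratio between the species ran from 0.817 to 1.09 for *B-H1* and from 0.826 to 1.12 for *B-H2*, so changes beyond these bounds lie outside the 95 % intervals. Since both genes encode related homeodomain proteins, reads that fit both models equally well could be assigned to either, and the values of each are uncertain to that extent.

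For the R7 genes, *pros* had 18.7, 26.0 and 21.9 CPM in *D. melanogaster* and 21.1, 17.7 and 35.7 CPM in *D. mauritiana*. *D. mauritiana* C lay above and B below all others, and the log2-fold change of -0.16 had a wide interval, from -0.83 to 0.50. The *pros* models of this comparison also differed in length, with 5094 nt in *D. melanogaster* and 5454 nt in *D. mauritiana*. The paper proposes to filter out genes whose models differ by more than 49 bp. In this comparison 9 of the 10 genes lay within this limit, and *pros*, which did not, was kept. With length as an offset its log2-fold change was -0.066. In the paired-end libraries *pros* had 32.5, 32.6 and 40.1 CPM in *D. simulans* and 29.5, 43.5 and 36.4 CPM in *D. mauritiana*, which overlap (log2-fold change -0.057, interval -0.42 to 0.30).

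*sev*, the receptor for the R7 signal, was the gene with the smallest adjusted p of the 10 in both comparisons. Its CPM values were 249, 259 and 241 in *D. melanogaster* and 276, 290.4 and 435 in *D. mauritiana*. All *D. melanogaster* libraries lay below all *D. mauritiana* libraries, and *D. mauritiana* C lay far above A and B. The log2-fold change was -0.42 (SE 0.20, adjusted p = 0.203 in edgeR), and without *D. mauritiana* C it was -0.19 (adjusted p = 0.348). In the paired-end libraries *sev* had 373, 432 and 455 CPM in *D. simulans* and 495, 549 and 489.9 CPM in *D. mauritiana*. Again the groups did not overlap, with *D. simulans* lower in 3 of 3 libraries. The log2-fold change of -0.28 (SE 0.091, interval -0.50 to -0.070) had an adjusted p of 0.0604 in edgeR. DESeq2 called it (-0.28, adjusted p = 0.0226), while over 13 alternative settings on the reciprocal models the adjusted p ranged from 0.0226 to 0.346 with this 1 call.

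The ranges of the 3 and 3 libraries did not overlap for 1 of the 10 genes in the comparison with *D. melanogaster* (*sev*), where this was so for 37.6 % of all genes tested, and for 3 of the 10 between *D. simulans* and *D. mauritiana* (*lz*, *sev* and *svp*), where it was so for 44.6 %. The 2 comparisons use different libraries of *D. mauritiana*. Whether the change against *D. melanogaster* differed from that against *D. simulans* was tested in 1 fit over all 12 libraries. None of the 10 genes was called, beside 14.5 % of all genes, and none had an unadjusted p below 0.05 in edgeR, while DESeq2 also gave 0 calls. The largest differences of the log2-fold changes were those of *ro* (-0.66, SE 0.31, adjusted p = 0.198) and *salm* (0.45, SE 0.26, adjusted p = 0.310), both from edgeR. They depended on single libraries. Without *D. mauritiana* single-end C, *salm* was called at a difference of 0.75 (adjusted p = 0.00321, in a range to 0.559 over 16 settings), and without *D. melanogaster* B, *ro* was called at -0.93 (adjusted p = 0.0329, in a range to 0.342).

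**Figure D2:**
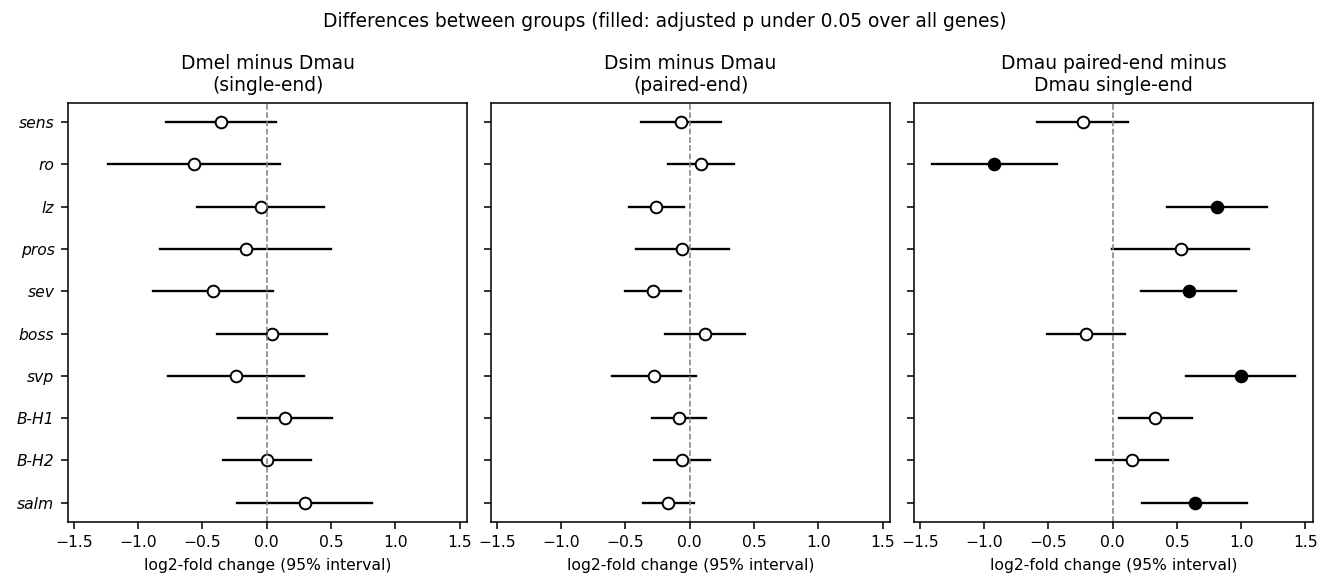
Log2-fold changes of the 10 genes (circles; filled where the adjusted p was below 0.05 over all genes) with their 95 % intervals (lines) between *D. melanogaster* and *D. mauritiana*, between *D. simulans* and *D. mauritiana*, and between the paired-end and single-end libraries of *D. mauritiana*. No circle is filled in the first and second panel, where the values run from -0.57 to 0.29 and from -0.28 to 0.12, and 5 are filled in the third, with *svp* at 1.00 and *ro* at -0.92 as the extremes.

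The 6 libraries of *D. mauritiana* belong to the same strain, tissue, sex and stage, so that their comparison shows how far values of 1 species lie apart between the sets. In the fit over 12 libraries, 5 of the 10 genes were called between the paired-end and the single-end set, beside 48.1 % of all genes tested, and the ranges of the libraries did not overlap for the same 5 genes, beside 59.1 % of all genes. *svp* had 10.3, 12.7 and 15.7 CPM in the single-end and 24.0, 27.7 and 25.5 CPM in the paired-end libraries, a log2-fold change of 1.00 (SE 0.19, adjusted p = 0.00310 in edgeR). *lz* had 28.6, 30.4 and 45.7 CPM against 59.2, 58.1 and 66.9 CPM, a change of 0.81 (SE 0.18, adjusted p = 0.00443). *ro* was the gene that was called in the other direction, with 71.3, 66.4 and 44.7 CPM against 30.1, 29.5 and 36.8 CPM and a change of -0.92 (SE 0.22, adjusted p = 0.00684).

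*salm* with 51.4, 54.6 and 92.7 CPM against 97.8, 99.5 and 112 CPM (0.64, SE 0.19, adjusted p = 0.0157) and *sev* with 271, 295 and 444 CPM against 493, 544 and 483 CPM (0.59, SE 0.17, adjusted p = 0.0142) were also higher in the paired-end libraries. Both calls were lost without *D. mauritiana* B (adjusted p = 0.0720 for *salm* and 0.0639 for *sev*, in ranges from 0.000102 to 0.0720 and from 0.000252 to 0.0639 over 16 settings), and that of *salm* also without A (0.0513) and without both libraries with a high share of *mt:CoI* (0.0528). *svp*, *lz* and *ro* were called under all 16 settings, which all use the reciprocal models. For *lz* the settings thus do not cover the choice of model. Its direct count was 216 % to 317 % of the reciprocal count in the single-end and 165 % to 172 % in the paired-end libraries. The value of *lz* between the sets therefore depends on the model, and the contrast was not tested on direct models. *B-H1* (0.33, adjusted p = 0.0526) and *pros* (0.53, adjusted p = 0.0934) missed the threshold. *B-H1* was called under 5 of the 16 settings, namely RLE normalisation (0.0437), DESeq2 (0.0339), a minimum of 10 counts in every library (0.0308), and without *D. mauritiana* C (0.00214) or *D. melanogaster* B (0.0389), and its adjusted p reached 0.183 under the others. *pros* was called under 1 setting, without *D. mauritiana* C (adjusted p = 0.00187), in a range to 0.301. The remaining 3 genes, *sens*, *boss* and *B-H2*, had log2-fold changes of -0.23, -0.21 and 0.15 and were called under none of the 16 settings.

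The sets of *D. mauritiana* differ in read type and may differ in culture and preparation, and these cannot be told apart. Other values moved with the sets. The 6 photoreceptor neuron markers with counts in the tables, of 7 listed (*elav*, *gl*, *futsch*, *nSyb*, *Appl*, *fne*, without *chp*), summed to 277 to 457 CPM in the single-end and 619 to 653 CPM in the paired-end libraries of *D. mauritiana*, and to 248 to 332 CPM in *D. melanogaster* and 529 to 574 CPM in *D. simulans*. The rise was not particular to these markers. In the single-end and paired-end libraries of *D. mauritiana*, those of muscle summed to 880 to 1200 and 2004 to 2429 CPM, and those of glia to 349 to 542 and 573 to 592 CPM. The ranges overlapped for hemocytes (258 to 442 and 315 to 514 CPM), the antennal part (436 to 592 and 348 to 461 CPM) and the 5 markers of the eye part (1006 to 1226 and 1176 to 1337 CPM). The markers of fat body went the other way, as given above. The part of these differences in the values of *svp*, *lz*, *salm*, *sev* and *ro* was not tested.

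In edgeR without a length offset, *lz* and *B-H1* were called between *D. simulans* and *D. mauritiana* on the directly re-annotated gene models and not on the reciprocal ones. In the direct re-annotation the models of *D. mauritiana* and *D. simulans* had each been made by aligning *D. melanogaster* coding sequences to the genome, without matching their ends between species, and *lz* had 2440 nt in *D. mauritiana*, 2481 nt in *D. melanogaster* and 1566 nt in *D. simulans*. On these models the log2-fold change of *lz* between *D. simulans* and *D. mauritiana* was -0.93 (SE 0.097, adjusted p = 0.000691 in edgeR), against -0.26 on the reciprocal models with 1443 and 1438 nt. *B-H1* had 1148 nt in *D. mauritiana* but 1644 nt in *D. simulans* and 1635 nt in *D. melanogaster*. Its log2-fold change was 0.57 (SE 0.078, adjusted p = 0.00213 in edgeR) against *D. simulans*, where the reciprocal models, with 1519 and 1523 nt, gave -0.082. Against *D. melanogaster* the direct models gave 0.41 for *B-H1*, which was not called (adjusted p = 0.0980 in edgeR). The number of the 10 genes called between *D. simulans* and *D. mauritiana* was thus 2 on the direct and 0 on the reciprocal models, beside 27.5 % and 25.1 % of all genes. Against *D. melanogaster* it was 0 on both, beside 19.7 % of all genes on the direct models.

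In a fit added after the data had been seen, the length of the direct models was used as an offset. The log2-fold change of *lz* between *D. simulans* and *D. mauritiana* was then -0.29 (adjusted p = 0.0661 in edgeR) and that of *B-H1* 0.054 (adjusted p = 0.641), and none of the 10 genes was called in either comparison between species, beside 19.2 % of all genes against *D. melanogaster* and 26 % against *D. simulans*. Against *D. melanogaster*, the value of *B-H1* turned from 0.41 to -0.10, while that of *pros*, given below, hardly moved.

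**Figure D3:**
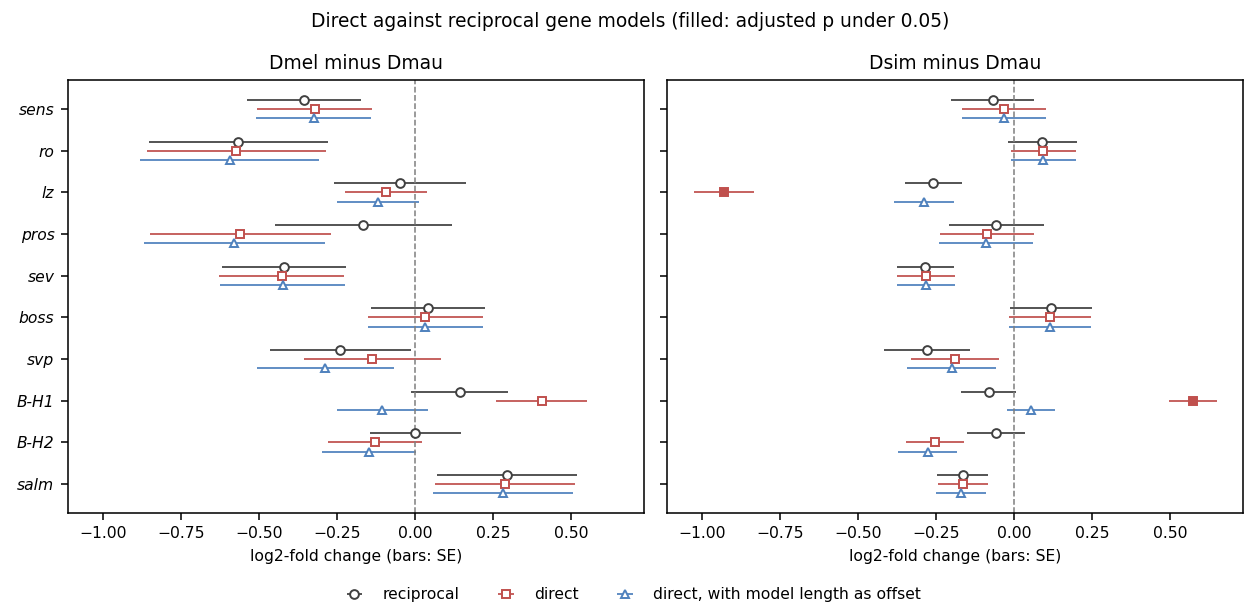
Log2-fold changes of the 10 genes (symbols; filled where the adjusted p was below 0.05) with their SE (bars) between *D. melanogaster* and *D. mauritiana* and between *D. simulans* and *D. mauritiana*, on reciprocal models, on direct models, and on direct models with their length as an offset. The values lie close together for most genes, while *lz* at -0.93 and *B-H1* at 0.57 on the direct models are the filled symbols.

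Reads on the direct *lz* model did not scale with its length in the same way in all libraries. In *D. mauritiana*, where the direct model of 2440 nt is 1.70 times as long as the reciprocal one, the direct count was 317 %, 305 % and 216 % of the reciprocal count in the single-end libraries A, B and C, but 165 %, 168 % and 172 % in the paired-end libraries D, E and F. The values of the sets did not overlap, although the gene models were identical. In *D. melanogaster* the direct count was 225 %, 349.9 % and 232 % of the reciprocal count in A, B and C. In *D. simulans*, with direct models of 1566 nt, it was 105 % to 106 %.

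*B-H1* and *B-H2* moved in opposite directions with the models of *D. mauritiana*. On its direct model *B-H1* had 67.9 % to 70.5 % of its reciprocal count in the paired-end and 77.0 % to 82.9 % in the single-end libraries. *B-H2*, whose direct model was shorter than the reciprocal one (1911 and 1952 nt), had 113 % to 114 % and 106 % to 109 %. In numbers, library D had 6617 counts for *B-H1* and 9420 for *B-H2* on the reciprocal models, and 4633 and 10680 on the direct models. In *D. simulans* and *D. melanogaster* the direct count of *B-H2* stayed at 98.8 % to 99 % of the reciprocal count.

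*pros* also had counts that did not follow the length. In *D. melanogaster* the direct model of 5508 nt received 341 to 438 counts, which is 75.9 % to 80.6 % of the count on the shorter reciprocal model of 5094 nt. In the other groups the share was 99.6 % to 104 %. The log2-fold change of *pros* against *D. mauritiana* was -0.56 (adjusted p = 0.237 in edgeR) on the direct models, against -0.16 on the reciprocal ones, and stayed at -0.58 (adjusted p = 0.223) with the length of the direct models as an offset. It was called in none of these fits. For *ro*, *sev*, *boss* and *salm* the direct counts were 99.5 % to 100.4 % of the reciprocal counts in every library. The tables made with the published annotations list 4 of the 10 genes, *sens*, *ro*, *sev* and *boss*, and on these models none of the 4 was called against *D. melanogaster*, beside 21 % of all genes, or against *D. simulans*, beside 28.4 %.

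**Figure D4:**
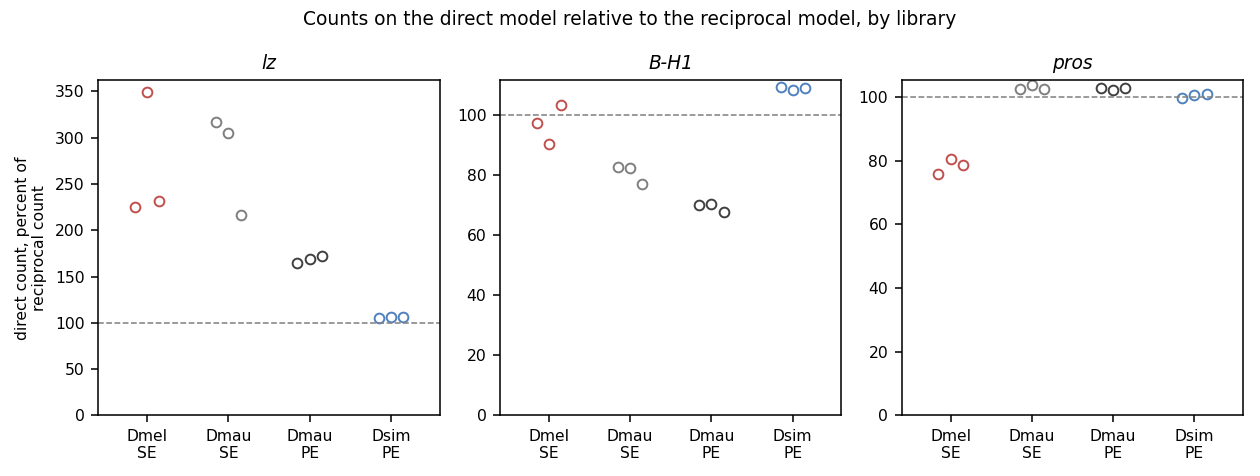
Counts on the direct model in percent of those on the reciprocal model (vertical axes starting at 0; dashed line at 100 %) for *lz*, *B-H1* and *pros*, with a circle for each library in the order of the replicate letters, in single-end (SE) and paired-end (PE) libraries. For *lz* the single-end libraries lie at 216 % to 349.9 % and the paired-end *D. mauritiana* libraries at 165 % to 172 %.

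Other genes of photoreceptor recruitment and of Sevenless signalling were counted from lists chosen for their roles. Since whole discs were used, these counts do not show whether they are expressed in the same cells as the 10. Of 18 genes of photoreceptor recruitment and identity, such as the proneural gene *ato* and the neuronal gene *elav*, 16 could be tested and 1 was called in each comparison between species, beside 18.2 % and 25.1 % of all genes. The called gene was *oc* in both, which encodes the homeodomain factor Orthodenticle of photoreceptor differentiation and head patterning. Normalised over 12 libraries, *oc* had 10.2, 8.06 and 11.0 CPM in *D. melanogaster* and 18.9, 19.4 and 32.0 CPM in the single-end *D. mauritiana* libraries, and 29.1, 33.5 and 35.3 CPM in *D. simulans* and 41.3, 42.6 and 38.0 CPM in the paired-end *D. mauritiana* libraries. It was lower in every library of *D. melanogaster* and of *D. simulans* than in the *D. mauritiana* libraries of the same read type. The log2-fold changes were -1.27 (SE 0.25, adjusted p = 0.0135) and -0.33 (SE 0.088, adjusted p = 0.0347) in edgeR. The medians of the 16 genes were -0.067 and -0.055.

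Of 16 genes that carry or restrain the signal of Sevenless inside the cell, 15 could be tested. The list runs from the adaptor *drk* through *Ras85D* to the nuclear factors *pnt*, *aop* and *ttk*. None of the 15 was called between *D. melanogaster* and *D. mauritiana*, beside 18.2 % of all genes. Between *D. simulans* and *D. mauritiana* 1 was called, beside 25.1 % of all genes. This was *ksr*, which encodes a scaffold of the MAP kinase cascade. *ksr* had 66.1, 65.5 and 71.0 CPM in *D. simulans* and 74.1, 81.5 and 81.1 CPM in *D. mauritiana*, so that all *D. simulans* libraries were lower (-0.23, SE 0.069, adjusted p = 0.0455 in edgeR). The medians of the 15 genes were -0.0033 and -0.0090. Between the 2 sets of *D. mauritiana*, 8 of the 16 recruitment genes and 11 of the 15 signalling genes were called, beside 48.1 % of all genes, 6 and 9 of them higher in the paired-end libraries.

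For the 5 genes that were called between the *D. mauritiana* sets, the genes with the most similar pattern were sought by the distance between the 4 group means of log2 CPM, each centred on its own mean, among 8820 genes with a symbol and a mean of at least 10 counts in every group. The closest were *CG43322* and *CG4676* for *ro* (distances 0.037 and 0.049), *l(2)k05819* and *PAPLA1* for *lz* (0.021 and 0.045), *Grip* and *Arglu1* for *sev* (0.031 and 0.050), *stau* and *mfas* for *svp* (0.042 and 0.054), and *Adgf-A* and *Gmap* for *salm* (0.015 and 0.049). These distances rest on 4 points per gene.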

How the data were processed

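The values deposited are raw counts of reads per gene, without normalization, in 6 tables (published, direct and reciprocal annotation, each for 2 pairs of species), with the length of each gene model. To make them, the authors split paired-end reads into reads of 50 bp, aligned the reads of each species with Bowtie2 to its own coding sequences and counted them with SAMtools 0.1.19. Reads were not trimmed, and bases of low quality are stated for 4 libraries (*D. simulans* C and *D. mauritiana* A, D and E). Reads from coding exons alone were counted, and the use of strand is not given in the sources used here. Start and end positions are those of the deposited alignments to the published *D. mauritiana* genome. Symbols come from a FlyBase name table, which matched 10 of 10 genes.

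Counts were tested within 1 table, 3 against 3 libraries, with edgeR 4.0.16 in R 4.3.3 (glmQLFit and glmQLFTest, TMM normalization, filterByExpr). The *D. mauritiana* sets and the difference of the species effects were tested on the 13311 genes of both reciprocal tables, which have the same *D. mauritiana* models, in 1 fit of 12 libraries. p-values were adjusted by Benjamini-Hochberg over all genes, with a threshold of 0.05. CPM values use TMM library sizes, and RPKM divides them by the model length. For edgeR fits, the SE was computed as the size of the log2-fold change divided by the square root of the quasi-likelihood F. The 95 % intervals use this SE and a t quantile. Alternatives were DESeq2 1.42.0, limma 3.58.1 on log2(RPKM + 1), other scaling and filters (at least 10 counts in every library), length offsets, other annotations and leaving out libraries. The edgeR fit with its main settings was tested on simulated counts for each contrast, and the alternatives were not. The study states separate biological replicates. The 10 genes and the gene lists were chosen with earlier results of these data known, and all 10 genes were named by rule. The list names phl, Gap1 and Dl were matched to the table symbols Raf, RasGAP1 and Delta.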

Additional observations from a re-analysis of the deposited data

Results flagged for a closer look

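None of the 10 photoreceptor genes changed differently in the 2 comparisons between species by the test of that difference. One gene named beside them, *oc*, was called by that test, beside 14.5 % of all genes tested. The log2-fold change of *oc* between *D. melanogaster* and *D. mauritiana* lay by -0.94 (SE 0.28, adjusted p = 0.0416 in edgeR over all genes) below that between *D. simulans* and *D. mauritiana*, in a fit of all 12 libraries. *oc* was lower than in *D. mauritiana* in 3 of 3 libraries of both other species, and it was also 0.79 higher on the log2 scale in the paired-end than in the single-end libraries of *D. mauritiana* (adjusted p = 0.0075 in edgeR). The values of *oc* were not recomputed under the alternative settings used for the 10 genes.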

How the results depend on the processing

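The number of the 10 genes called between *D. simulans* and *D. mauritiana* was 0 with edgeR on reciprocal models, 2 with DESeq2 (*lz*, *sev*) and 2 on direct models (*lz*, *B-H1*), while that against *D. melanogaster* was 0 under all of them. Of all genes, 3172 instead of 1775 were called against *D. melanogaster* and 1752 instead of 2790 against *D. simulans* in 1 fit of 12 libraries. With the replicate block, 1478 genes and 0 of the 10 were called against *D. melanogaster*, and the letters did not pair the libraries (r of deviations -0.338, 0.235 and 0.245 for A, B and C). *D. simulans* and its *D. mauritiana* set share no letters. Leaving out 1 library at a time gave 849 (without *D. melanogaster* C) to 1913 genes and 0 to 1 of the 10 against *D. melanogaster*, 1633 (without *D. mauritiana* D) to 2673 genes against *D. simulans*, 3 to 7 of the 10 between the *D. mauritiana* sets, and 0 to 1 for the difference of the species effects. The causes were not tested.

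Of 648 log2-fold changes recomputed for the 10 genes, 599 kept their sign and their side of the threshold and 33 changed sign, of which *B-H1* on direct models against *D. simulans* (0.57) was called. The others lay between -0.15 and 0.24 and were not called. Against *D. melanogaster*, *pros* was 0.0057 with limma on RPKM, *B-H1* was -0.10 on direct models with length as an offset, and *B-H2* was -0.024 without a filter, -0.13 on direct models, -0.15 with length as an offset there, and -0.083 without the 2 libraries rich in *mt:CoI*, where its difference of effects was -0.032. *B-H1* against *D. simulans* was 0.054 on direct models with the offset. Leaving out 1 library at a time, the values against *D. melanogaster* ran from -0.18 to 0.18 for *lz*, -0.38 to 0.19 for *pros*, -0.048 to 0.10 for *boss* and -0.12 to 0.12 for *B-H2*, and those against *D. simulans* from -0.15 to 0.044 for *sens*, -0.18 to 0.088 for *pros*, -0.14 to 0.0050 for *B-H1* and -0.14 to 0.0024 for *B-H2*. The difference of the species effects ran from -0.33 to 0.24 for *pros*, -0.29 to 0.088 for *sev*, -0.13 to 0.18 for *svp* and -0.075 to 0.17 for *B-H2*. The depth behind these values is at least 145 counts per gene and library.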

Other observations

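In the single-end libraries, several values of the 10 genes and of other cell types moved from library to library. In *D. mauritiana* A, B and C the CPM of *ro* was 72.8, 65.5 and 43.8, the direct count of *lz* was 317 %, 305 % and 216 % of its reciprocal count, and the fat body markers summed to 394, 572 and 1832 CPM. In *D. melanogaster* A, B and C, *ro* had 29.7, 56.8 and 36.7 CPM, the direct count of *lz* was 225 %, 349.9 % and 232 % of the reciprocal count, and the fat body markers summed to 3763, 103 and 3279 CPM. The replicate with the highest *ro* level in each species was thus also the one with the highest share of *lz* reads on the longer model and with the lowest fat body sum. These replicates, *D. mauritiana* A and *D. melanogaster* B, are also the 2 libraries that stood apart, with 3.48 % and 2.77 % of their counts in *mt:CoI* and 15.5 % and 15.1 % in their 20 most abundant genes. This is a description of 6 libraries, and no test was made.

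On the published models, which list *sens* with 1620 nt in *D. mauritiana*, its counts were 123 % to 125 % of those on the reciprocal model of 1623 nt in the paired-end *D. mauritiana* libraries, 102 % to 108 % in the single-end ones and 103 % to 106 % in *D. simulans*. For *ro*, *sev* and *boss* the published counts were 99.1 % to 102 % of the reciprocal counts.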
